A study of Homo sapiens with 31 samples.

Results

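The PARP and PARG family was followed here by the mRNA of 10 genes out of 19221 in the expression table, across 31 libraries. The libraries came from cell lines that the study used as models of ovarian cancer. The 10 genes were chosen by name: PARP1, PARP2 and PARP3, which respond to DNA breaks, PARP4, the tankyrases TNKS and TNKS2, the macrodomain enzymes PARP9 and PARP14, PARP10, and PARG, the glycohydrolase that takes poly(ADP-ribose) chains apart. All 10 passed the limit used for testing in every comparison, 1 FPKM or more in a number of libraries equal to the size of the smaller group. FPKM count the fragments of a gene per length of transcript and per fragment sequenced. Levels of different genes can be set side by side only roughly, since GC content and pseudogenes, taken up below, may also affect them.

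The libraries fall into 4 labelled groups. The study uses C13* as a cisplatin-resistant ovarian cancer cell line with working homologous recombination, but itself questions that use given the origin of the line. Its cells carried a control shRNA (C13* shCON, n = 7) or, by lentivirus, an shRNA against CEBPB (C13* shCEBPB, n = 8). CEBPB is the gene of the transcription factor C/EBPβ. A2780 is an ovarian cancer cell line, which the study says was reported as unlikely to be of the high-grade serous type. It was sequenced without treatment (A2780, n = 8) and as a strain grown in rising olaparib until it was resistant (A2780 OlaR, n = 8, labelled as treated with olaparib). The study calls its replicates biological, but the labels do not tie libraries to separate cultures or clones and each group comes from 1 line, so p-values measure the spread between these libraries, which may be technical. In shCON replicate 1 the cell line field reads A2780 while the title reads C13*, and the title was followed.

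ADP-ribosyltransferases split NAD and place ADP-ribose on proteins or nucleic acids. PARP1 and PARP2 bind broken DNA, build chains of ADP-ribose there and are the targets of olaparib, which blocks their catalysis and holds them on DNA. PARG removes the chains, the tankyrases modify partners such as axin, and PARP9 and PARP14 are known as interferon-induced genes.

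Stretches before the starts of 3 members are shown, since the study asks about a transcription factor and since PARP9 and PARP14, both known as interferon-induced and both on chromosome 3, differed in their levels. They come from RefSeq on GRCh38.p14, run 5′ to 3′ on the strand of the gene, and carry in capitals each match to the interferon-stimulated response element, searched on both strands as GAAA, any 2 bases and GAAA. The PARP1 stretch (chr1:226408155-226408343, minus strand) ends before the outermost annotated start of the gene. The PARP9 stretch (chr3:122564301-122564367, minus strand) lies just before a RefSeq start of PARP9 at 122564300, but inside the span that GENCODE 44 gives the gene. It takes in the first 30 bases of the neighbour DTX3L, which is read from the opposite strand. The PARP14 stretch (chr3:122680589-122680838, plus strand) ends at the base before the start.
PARP1: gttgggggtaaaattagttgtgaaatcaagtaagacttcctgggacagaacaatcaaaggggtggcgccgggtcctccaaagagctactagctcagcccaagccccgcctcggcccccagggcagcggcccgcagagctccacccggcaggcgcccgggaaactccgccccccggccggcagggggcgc
PARP9: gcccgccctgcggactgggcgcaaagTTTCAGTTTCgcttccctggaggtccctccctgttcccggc
PARP14: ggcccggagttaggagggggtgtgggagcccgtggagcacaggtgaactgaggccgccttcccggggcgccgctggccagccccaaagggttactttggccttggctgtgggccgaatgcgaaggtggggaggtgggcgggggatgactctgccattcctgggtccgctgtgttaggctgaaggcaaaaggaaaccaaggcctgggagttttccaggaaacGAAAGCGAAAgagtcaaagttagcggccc

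Windows of 300 bases, from 250 before a start to 50 after it, were at hand for 7 members (PARP1, PARP2, PARP3, PARG, TNKS2, PARP9 and PARP14). The response element was found in 2 of these 7, PARP9 and PARP14, and in 3.57% of 35116 promoter windows of the same length. A C/EBP motif searched as TTGCNNAA on both strands was in 0 of the 7 and in 10.5% of all windows. The STAT-type motif TTCNNNGAA was in PARP2 and PARP14, 2 of the 7, and in 7.66% of all windows. In the PARP9 window at chr3:122564251-122564550 the response element begins 41 bases before the start. The other PARP9 window, at chr3:122564735-122565034, held 0 matches to it. The same element lies in the window of DTX3L, whose start is 38 bases from the PARP9 start of the first of these windows. In PARP14 it begins 29 bases before the start and the STAT-type match begins 40 bases before it, so the pair of matches do not overlap. A match is a run of letters and was not tested for binding.

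The members sit on 6 chromosomes of GRCh38 by GENCODE 44. PARP1 spans chr1:226360210-226408154 on the minus strand in 21 merged exon blocks. PARP9 (chr3:122527924-122564577, minus) and PARP14 (chr3:122680839-122730840, plus) are both on chromosome 3, and PARP3 lies there too (chr3:51942345-51948867, plus). DTX3L starts at 122564338, inside the span of PARP9. PARP2 is at chr14:20343615-20357904 (plus), PARP4 at chr13:24420931-24512778 (minus), PARG at chr10:49818279-49970203 (minus) and TNKS2 at chr10:91798426-91865475 (plus). TNKS and PARP10 are both on chromosome 8. PARP9 shares 139 bp of exon with DTX3L, PARP10 shares 324 bp with GRINA and 197 bp with SPATC1, PARG shares 37 bp with TIMM23B, and PARP2 shares 71 and 26 bp with 2 long non-coding RNAs, each time on the opposite strand. Use of strand in the counting is not given in the sources used here, so reads in these stretches cannot be told apart. PARP1, PARP4 and PARG have pseudogenes that are not in the table, and reads may have been split between gene and copy, so their levels are uncertain to that extent.

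Before the members are compared, the labels need a caution. Each of the 8 libraries labelled A2780 OlaR was most alike, outside its own group, to a library labelled C13* shCON (Pearson's r 0.990 to 0.991 across 12967 genes), and none to its parent line A2780. The median r between the groups was 0.989 for OlaR with shCON, against 0.706 for OlaR with A2780 and 0.789 for shCON with shCEBPB. Genes at 0 in all libraries of one group and at 10 FPKM or more in all of the other numbered 0 in both directions for shCON and OlaR, 17 and 29 for A2780 and OlaR, and 15 and 22 for shCON and shCEBPB.

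Most marker genes split the same way. KRT5, a keratin of squamous epithelium, was at 1368 to 1633 FPKM in the libraries labelled shCON and at 1619 to 1991 in those labelled OlaR, but at 0 to 0.0416 in shCEBPB and 0 in A2780. EPCAM was at 106 to 116 in shCON, 102 to 128 in OlaR, 0.279 to 0.874 in shCEBPB and 0.938 to 1.56 in A2780, and CDH1 and TP63 had the same split. VIM set shCON (8.49 to 10.5) apart from OlaR (0.0857 to 0.265), and it was at 328 to 360 in shCEBPB and 784 to 827 in A2780. PTPRC, which encodes the leukocyte protein CD45, was at 75.7 to 103 in A2780 and at most 0.0144 elsewhere. It is 1 of 3 blood, vessel and fibroblast markers, which summed to 95.1 to 118 in A2780 and 12.3 to 18.8 in shCEBPB. In shCON and OlaR they summed to 3.12 to 3.90 and 4.09 to 5.65. COL1A1, another of the 3, was higher in shCEBPB than in shCON (log2 fold change 2.03) and lower in OlaR than in A2780 (-1.76). PECAM1 did not reach the limit for testing in these comparisons. The Müllerian marker PAX8 was at 5.18 to 6.93 in shCON and OlaR together and under 1 in the others, and WT1 and MUC16 had means under 1 in all 4 groups. FOLR1, the folate receptor and the last of these 4 ovarian and Müllerian markers, split otherwise, at 837 to 967 in shCEBPB, 0.829 to 1.66 in shCON, 10.8 to 14.8 in A2780 and 0.346 to 1.61 in OlaR. Of the 7 epithelial and squamous markers, 5 were lower and 2 (KRT8 and KRT18) higher in shCEBPB than in shCON, and 7 of 7 were higher in OlaR than in A2780. Their summed level was 3739 to 4240 FPKM in shCON, 1263 to 1514 in shCEBPB, 85.1 to 93.5 in A2780 and 4212 to 5085 in OlaR. The 4 mesenchymal markers summed to 32.7 to 37.98 in shCON, 349 to 377 in shCEBPB, 857 to 898 in A2780 and 24.5 to 28.9 in OlaR, and VIM made up most of the sum in shCEBPB and A2780. Of the 4, 2 were higher and 2 (CDH2 and FN1) lower in shCEBPB than in shCON, and 1 (FN1) was higher and 3 were lower in OlaR than in A2780. Group names below mean the libraries labelled that way. These markers move with both comparisons, and their part in the members' values was not tested.

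**Figure D1:**
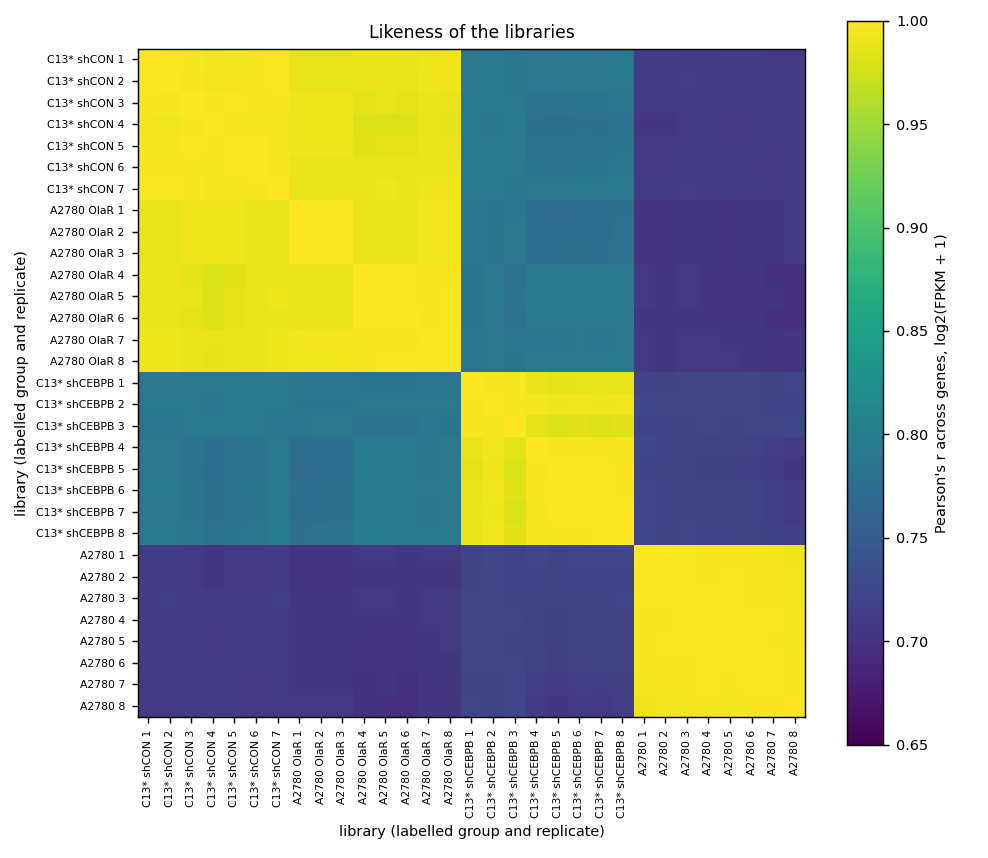
Likeness of the 31 libraries, as Pearson's r of log2(FPKM + 1) across 12967 genes, with libraries ordered by labelled group on both axes and colour for r. The libraries labelled C13* shCON and A2780 OlaR form 1 block with a median r of 0.989 between them, while C13* shCEBPB and A2780 each stand apart.

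CEBPB itself was lower in the libraries labelled shCEBPB. It ranged from 75.2 to 101 FPKM (median 85.4) in shCON and from 30.2 to 58.7 (median 49.5) in shCEBPB, with no overlap (log2 fold change -0.87, with a standard error (SE) of 0.11; adjusted p = 1.42e-06, limma with Benjamini-Hochberg adjustment). In size this was exceeded by 34.0% of the genes tested, and whether the shRNA accounts for it was not tested. In A2780 CEBPB ranged from 85.6 to 111 (median 99.7) and in OlaR from 97.1 to 127 (median 113), a small difference with overlap (0.16, SE 0.06, adjusted p = 0.0202, limma). The FPKM of a library summed to between 417556 and 454578, and the depth of the deepest library, read from the steps between low values, was 1.42 times that of the shallowest. The number of reads is unknown from FPKM, so no counting error is given.

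In C13* with the CEBPB shRNA, 8 of the 10 members passed the test, 6 lower and 2 higher. PARP14 and PARP10 fell most, both by over 1.5 on the log2 scale, PARP2, PARP3 and PARP4 fell by a smaller and similar amount, PARP9 fell slightly, and PARP1 and TNKS rose slightly. Of all 12006 genes tested, 84.7% passed the same test, 38.9% higher and 45.7% lower, so the members' count is near the background. The groups did not overlap for 7 members, against 66% of all genes, and 2 members (PARP10 and PARP14) changed at least 2-fold, against 29.5%. The median log2 fold change was -0.42 over the members and -0.07 over all genes.

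Between A2780 and A2780 OlaR, 9 of the 10 members passed, 5 higher and 4 lower in OlaR. PARP1 rose by far the most, PARP10, PARP4, PARP9 and PARG rose less, and PARP3, TNKS, TNKS2 and PARP2 fell. All genes passed at 89.8% of 12458, with 40.1% higher and 49.7% lower, so this count too is near the background. The groups did not overlap for 6 members, against 74.1% of all genes, and PARP1 alone among the members changed at least 2-fold, against 35.7% of all genes. The median log2 fold change was 0.10 over the members and -0.12 over all genes. Because 1 was added to each FPKM before taking log2, changes of genes with few FPKM come out too small. In bulk RNA, fewer cells of a type and less RNA per cell cannot be told apart.

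**Figure D2:**
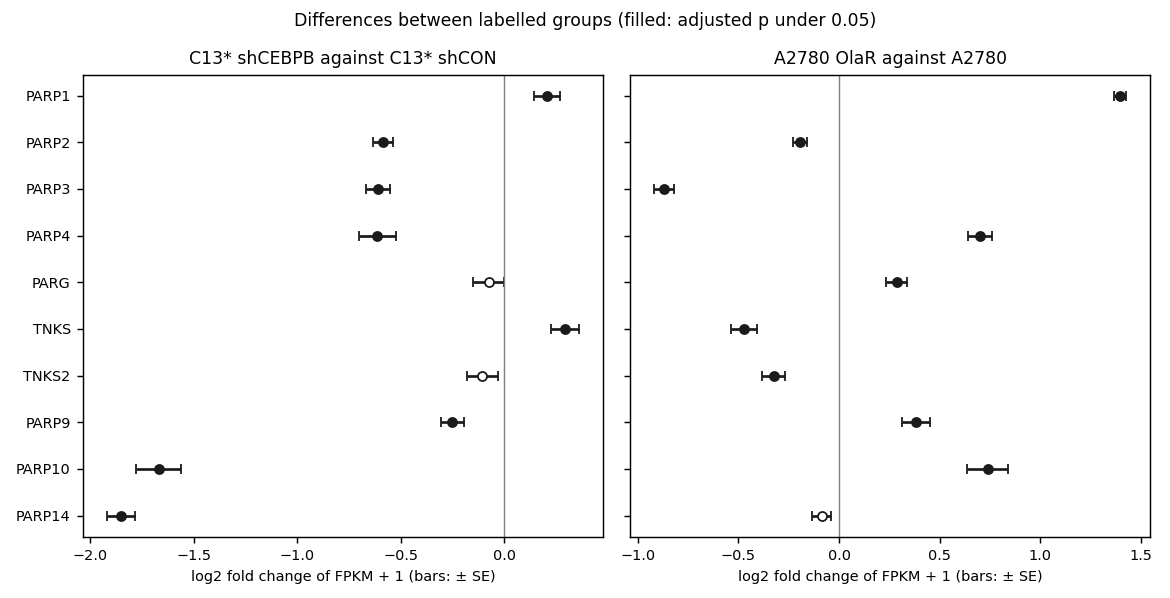
Log2 fold changes of FPKM + 1 with SEs for the 10 members, shCEBPB against shCON (left) and A2780 OlaR against A2780 (right), filled where the adjusted p was under 0.05. PARP10 and PARP14 lie at -1.67 and -1.85 on the left, and PARP1 lies at 1.40 on the right.

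PARP1, the main olaparib target, was the most abundant member in each of the 4 groups. In shCON replicates 1 to 7 it was at 122, 121, 122, 120, 124, 127 and 118 FPKM, and in shCEBPB replicates 1 to 8 at 153, 159, 160, 159, 128, 127, 128 and 123. The first 4 shCEBPB libraries lay above every shCON library, while of the other 4, at 123 to 128, replicate 8 lay inside the shCON range and the rest just past its highest value. The 7 shCON libraries averaged 122 ± 2.76 (SD) and the 8 shCEBPB libraries 142 ± 16.7 (SD). The rise was 0.21 (log2, SE 0.06, adjusted p = 0.00547, limma; exact permutation p = 0.00124, two-sided). In libraries 1 to 3 alone it was 0.36. It did not pass in libraries numbered 4 to 8 alone (0.11, adjusted p = 0.125, limma) or under quantile normalization (0.09, adjusted p = 0.308, limma).

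In A2780 replicates 1 to 8 PARP1 was at 51.5, 50.3, 51.7, 52.3, 52.9, 51.8, 51.9 and 48.6 FPKM. In A2780 OlaR replicates 1 to 8 it was at 129, 133, 132, 142, 140, 143, 137 and 139. Every OlaR library lay above every A2780 library by a wide margin. The log2 fold change was 1.40 (SE 0.03, adjusted p = 1.60e-19, limma), a 2.63-fold difference, and the exact permutation p was 0.000155, the smallest that 8 against 8 can give. In size it was exceeded by 23.2% of the genes tested. The order of the means was shCEBPB (142), OlaR (137), shCON (122) and A2780 (51.4), in which the top pair did not differ beyond their spread (adjusted p = 0.505, limma) and the next steps did.

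PARP1 held 45.3% ± 0.754 (SD, n = 7) of the summed FPKM of the 9 transferases in shCON, against 60.3% ± 2.85 (SD, n = 8) in shCEBPB. The share was 25.4% ± 0.816 in A2780 and 48.2% ± 1.83 in OlaR (SD, n = 8 each). The sum itself was highest in OlaR at 284 ± 2.91 FPKM and lowest in A2780 at 202 ± 2.06. In A2780, then, PARP1 held a smaller share of these 9 transferases than in the other groups, whose ranges of the share (43.8% at the lowest) did not reach the A2780 range (26.2% at the highest). Other transferases, counted below, are not in this sum.

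PARP2, the other DNA-bound target of olaparib, went the opposite way from PARP1 in both comparisons. In shCON it ranged from 32.7 to 38.1 FPKM (median 34.3) and in shCEBPB from 20.4 to 25.0 (median 22.9). No shCEBPB library reached the shCON range (log2 fold change -0.59, SE 0.05, adjusted p = 2.84e-09, limma; exact permutation p = 0.000311, the smallest that 8 against 7 can give). Values in A2780 ran from 36.3 to 40.8 (median 38.9) and in OlaR from 31.7 to 37.1 (median 33.5), so the groups overlapped by a little. That fall was -0.19 (SE 0.04, adjusted p = 5.02e-05, limma), and -0.09 with libraries scaled by the median of ratios (adjusted p = 0.0210, limma). With PARP1 and PARP2 measured in the same library, the ratio of PARP1 to PARP2 (each FPKM + 1) was 6.03 ± 0.871 in shCEBPB and 3.45 ± 0.170 in shCON. It was 3.99 ± 0.3002 in OlaR and 1.32 ± 0.0741 in A2780. Both differences had an adjusted p of 0.000389 (exact permutation test, adjusted over the 10 ratio tests).

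PARP3, which acts with PARP1 in the response to double-strand breaks, was lower in both comparisons. It ranged from 12.7 to 14.3 FPKM (median 13.6) in shCON and from 7.06 to 9.77 (median 8.40) in shCEBPB. A2780 held the highest values, 21.6 to 25.7 (median 24.4), and OlaR ranged from 11.8 to 14.2 (median 12.2). Neither pair of groups overlapped. The log2 fold changes were -0.61 in C13* (SE 0.06, adjusted p = 2.59e-08, limma) and -0.87 in A2780 (SE 0.05, adjusted p = 1.56e-12, limma). The middle groups of the order, shCON and OlaR, did not differ beyond their spread (adjusted p = 0.0890, limma).

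PARP4, the transferase of the vault particle, moved in opposite directions in the comparisons. It was at 23.5 to 30.3 FPKM (median 28.1) in shCON and 14.3 to 22.02 (median 15.99) in shCEBPB, and at 15.4 to 19.1 (median 16.2) in A2780 and 24.5 to 31.6 (median 26.1) in OlaR. The levels thus formed a high pair, OlaR and shCON, and a low pair, shCEBPB and A2780, with no overlap between a high and a low group. The log2 fold change was -0.61 in C13* (SE 0.09, adjusted p = 4.59e-06, limma) and 0.70 in A2780 (SE 0.06, adjusted p = 1.74e-09, limma). In libraries numbered 1 to 3 alone the C13* fall was -0.30 and in libraries 4 to 8 it was -0.81, so its size depended on the libraries used. Within each pair the difference did not pass (adjusted p = 0.813 for OlaR and shCON and 0.452 for shCEBPB and A2780, limma).

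**Figure D3:**
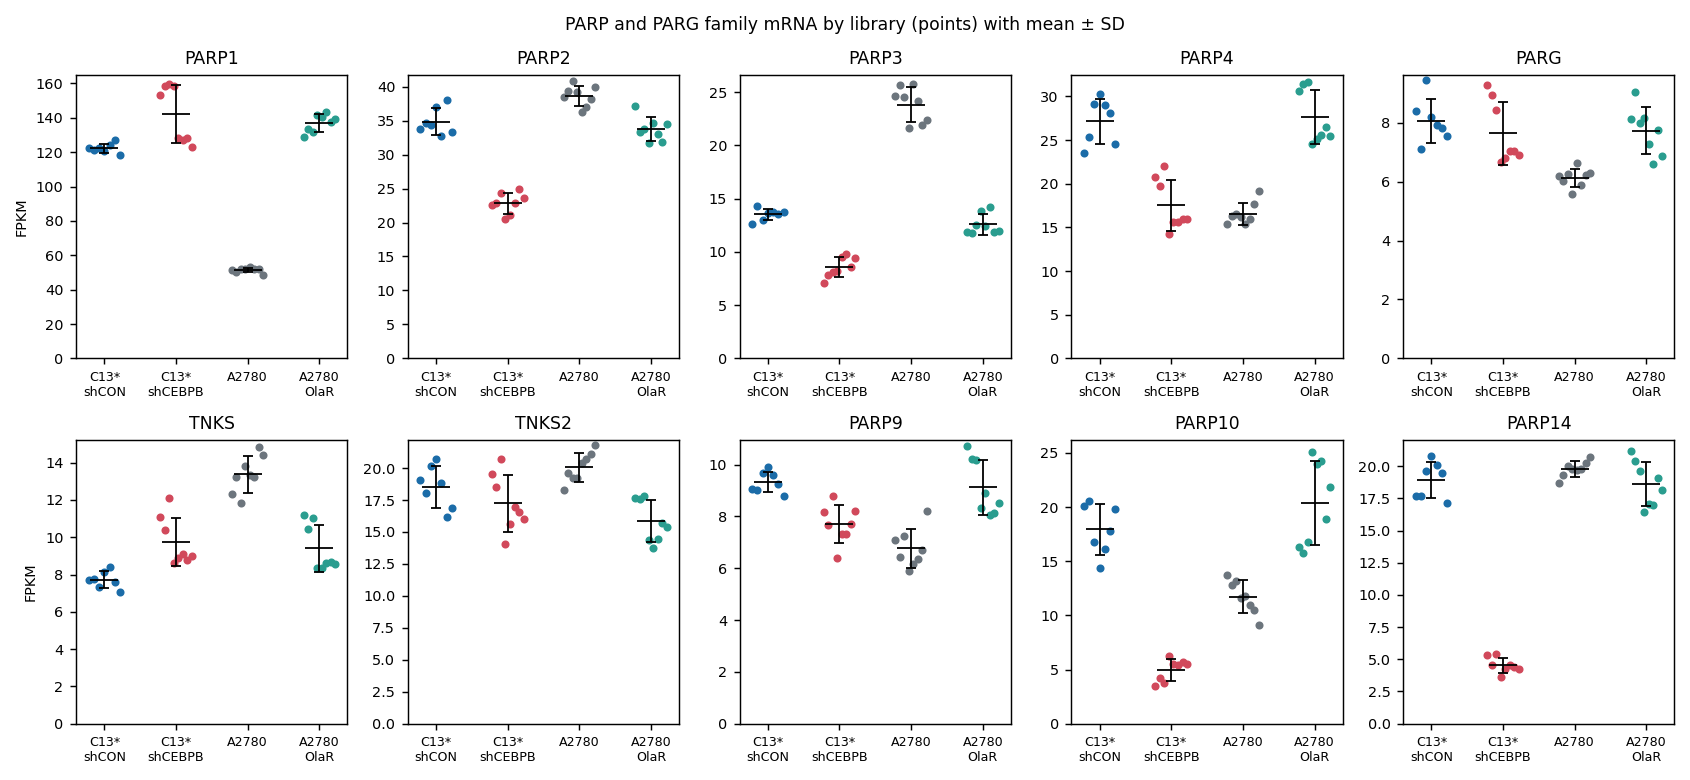
FPKM of the 10 members in each library (points) with the mean and SD of each labelled group, on linear axes from 0. PARP1 in A2780 (48.6 to 52.9) lies far below the other groups, and PARP10 and PARP14 in shCEBPB (at most 6.26 and 5.38) lie far below the rest.

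PARG, the enzyme that degrades poly(ADP-ribose) chains, varied least between group means after TNKS2. It ranged from 7.10 to 9.44 FPKM (median 7.93) in shCON and from 6.67 to 9.28 (median 7.03) in shCEBPB. These groups overlapped almost wholly, and the log2 fold change of -0.07 (SE 0.07, adjusted p = 0.361, limma) turned to 0.06 under quantile normalization. In libraries 1 to 3 alone it was 0.09 (adjusted p = 0.383, limma), and in libraries 4 to 8 it was -0.17 and passed (adjusted p = 0.00720, limma). A2780 held the lowest values, 5.58 to 6.62 (median 6.20), against 6.59 to 9.04 (median 7.87) in OlaR. The libraries overlapped at the edge, and the rise in OlaR was 0.29 (SE 0.05, adjusted p = 4.09e-05, limma). The 3 groups other than A2780 did not differ between neighbours in their order.

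Chain-building and chain-removing mRNA were also set against each other within libraries. The ratio of PARP1 to PARG was 16.7 ± 1.79 in shCEBPB and 13.7 ± 1.08 in shCON, with overlap (adjusted p = 0.000691, exact permutation test). In OlaR it was 15.97 ± 1.91 and in A2780 7.36 ± 0.388, without overlap (adjusted p = 0.000389, exact permutation test). For PARP2 to PARG the ratio was lower in the first-named group of both comparisons, 2.79 ± 0.325 against 3.98 ± 0.385 and 4.01 ± 0.420 against 5.57 ± 0.349 (adjusted p = 0.000389 each, exact permutation test). These are ratios of mRNA, and no enzyme activity was measured.

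The tankyrases TNKS and TNKS2 add ADP-ribose to axin, TRF1 and other partners. TNKS ranged from 7.08 to 8.40 FPKM (median 7.71) in shCON and from 8.64 to 12.1 (median 9.05) in shCEBPB, with no overlap. The rise was 0.30 (SE 0.07, adjusted p = 5.91e-04, limma), and it was 0.50 in libraries 1 to 3 and 0.17 in libraries 4 to 8. In A2780 TNKS ranged from 11.8 to 14.8 (median 13.3), its highest level, and in OlaR from 8.33 to 11.2 (median 8.63). No OlaR library reached the A2780 range (-0.47, SE 0.07, adjusted p = 1.54e-06, limma). That fall was -0.18 in libraries 1 to 3 and -0.65 in libraries 4 to 8.

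TNKS2 was the more abundant tankyrase in each group, with means of 18.6 in shCON, 17.2 in shCEBPB, 20.0 in A2780 and 15.8 in OlaR. Its shCEBPB range (14.0 to 20.7) covered the shCON range (16.2 to 20.7), and the log2 fold change was -0.11 (SE 0.08, adjusted p = 0.199, limma). It turned to 0.03 in libraries 1 to 3, and in libraries 4 to 8 it was -0.18 and passed (adjusted p = 0.0333, limma). In OlaR TNKS2 ranged from 13.7 to 17.8 (median 15.6), below the 18.3 to 21.8 (median 20.0) of A2780 (-0.33, SE 0.06, adjusted p = 1.87e-05, limma). The size of that fall was -0.10 in libraries 1 to 3 and -0.46 in libraries 4 to 8. The ratio of TNKS to TNKS2 was 0.591 ± 0.0258 in shCEBPB and 0.448 ± 0.0356 in shCON, without overlap (adjusted p = 0.000389, exact permutation test). It was 0.617 ± 0.0266 in OlaR and 0.683 ± 0.0319 in A2780, with overlap (adjusted p = 0.000932, exact permutation test).

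PARP14, a macrodomain enzyme known to work with STAT6, showed the largest fall of any member in C13*. In shCON replicates 1 to 7 it was at 17.7, 17.7, 19.7, 20.8, 20.1, 19.4 and 17.1 FPKM, and in shCEBPB replicates 1 to 8 at 5.34, 4.53, 5.38, 3.603, 4.21, 4.57, 4.39 and 4.27. The highest shCEBPB library lay far below the lowest shCON library. The log2 fold change was -1.85 (SE 0.07, adjusted p = 1.49e-14, limma; exact permutation p = 0.000311), larger in size than that of all but 11.98% of the genes tested. In the other 3 groups PARP14 did not differ between neighbours in their order (A2780 19.8, shCON 18.9 and OlaR 18.6). Between A2780 and OlaR the log2 fold change was -0.09 (SE 0.05, adjusted p = 0.0942, limma) and turned to 0.01 when libraries were scaled by the median of ratios. After a correction for GC content and length it was 0.08 and passed as higher (adjusted p = 0.00155, limma), and in libraries 4 to 8 it was -0.18 and passed as lower (adjusted p = 0.00101, limma).

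PARP9, which forms a complex with the ubiquitin ligase DTX3L, changed little. It ranged from 8.80 to 9.89 FPKM (median 9.24) in shCON and from 6.39 to 8.79 (median 7.69) in shCEBPB, the ranges just failing to meet (log2 fold change -0.25, SE 0.05, adjusted p = 3.64e-04, limma). In libraries 1 to 3 alone the fall was -0.15 and did not pass (adjusted p = 0.0646, limma). Against 5.89 to 8.22 (median 6.57) in A2780, OlaR held 8.06 to 10.7 (median 8.70), a rise of 0.38 (SE 0.07, adjusted p = 2.92e-05, limma). DTX3L, from the shared promoter region printed above, had means of 10.3 ± 0.614 in shCON, 8.86 ± 0.670 in shCEBPB, 11.0 ± 0.498 in A2780 and 9.82 ± 0.882 in OlaR. It was lower in shCEBPB (-0.20, adjusted p = 0.00164, limma) and in OlaR (-0.15, adjusted p = 0.00679, limma). In OlaR that value was near the median of all genes, turned to 0.01 in libraries 1 to 3 (adjusted p = 0.834, limma) and did not pass with libraries scaled by the median of ratios (-0.05, adjusted p = 0.266, limma), and the fall in shCEBPB did not pass after the correction for GC content and length (-0.06, adjusted p = 0.0935, limma). The ratio of PARP9 to PARP14 was 1.58 ± 0.0905 in shCEBPB and 0.519 ± 0.0190 in shCON. In OlaR it was 0.516 ± 0.0308 and in A2780 0.373 ± 0.0328 (adjusted p = 0.000389 for both differences, exact permutation test).

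PARP10, a transferase that adds single ADP-ribose units, had the widest spread relative to its mean in each of the 4 groups, with a coefficient of variation of up to 20.5%. In shCON replicates 1 to 7 it was at 20.1, 20.6, 16.8, 14.4, 16.1, 17.8 and 19.8 FPKM, and in shCEBPB replicates 1 to 8 at 3.47, 4.19, 3.79, 6.26, 5.51, 5.41, 5.74 and 5.53. The groups lay far apart (log2 fold change -1.67, SE 0.11, adjusted p = 6.49e-11, limma). In A2780 replicates 1 to 8 it was at 13.8, 12.8, 13.2, 11.6, 11.7, 10.9, 10.5 and 9.11, and in OlaR at 16.3, 15.8, 16.8, 25.1, 24.0, 24.2, 18.9 and 21.8. Libraries 1 to 3 were the lowest of OlaR and among the highest of A2780. The rise in OlaR was 0.74 (SE 0.10, adjusted p = 1.36e-06, limma), but 0.28 in libraries 1 to 3 and 1.01 in libraries 4 to 8. PARP10 and PARP14 both stood lowest in shCEBPB, yet PARP10 was lower in A2780 (11.7) than in shCON (17.9; adjusted p = 2.06e-06, limma), a pair in which PARP14 did not pass (adjusted p = 0.150, limma).

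**Figure D4:**
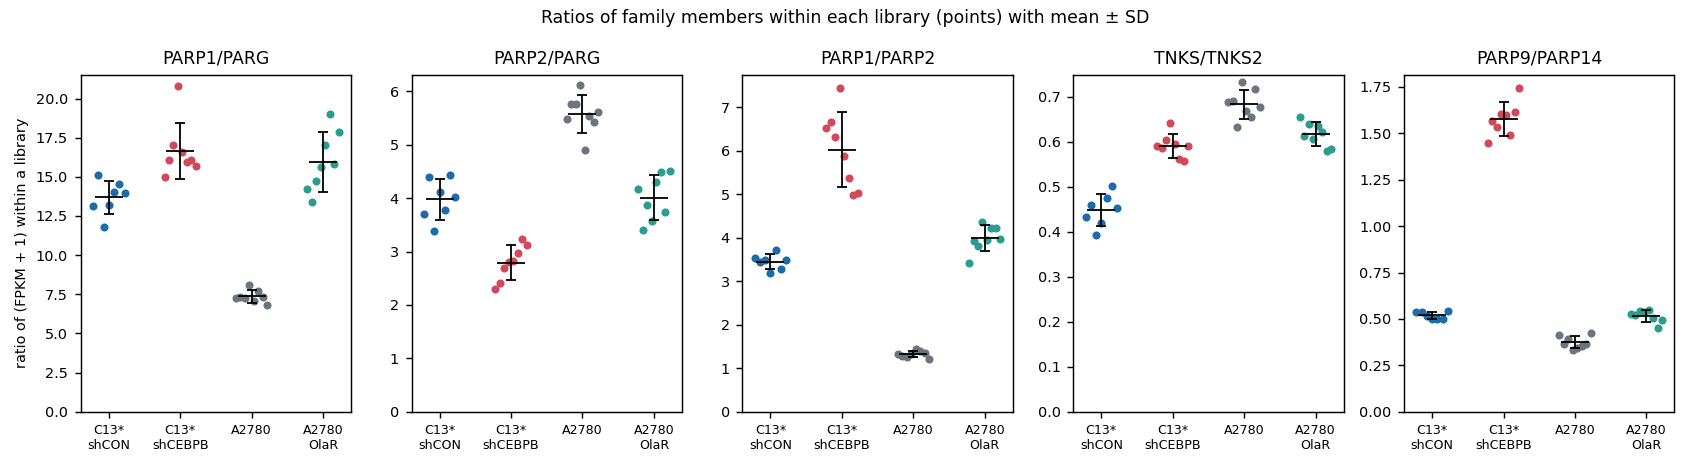
Ratios of members within each library (FPKM + 1, points) with the mean and SD of each labelled group, on linear axes from 0. PARP1 to PARP2 is lowest in A2780 at 1.32, and PARP9 to PARP14 is highest in shCEBPB at 1.58.

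The libraries labelled OlaR and shCON, from different lines by their labels, differed in few members. Of the 10, 3 passed, 2 of them higher: PARP1 (0.16, adjusted p = 4.32e-04) and TNKS (0.25, adjusted p = 0.00617) were higher in OlaR and TNKS2 was lower (-0.22, adjusted p = 0.0123; limma). Over all genes 42.2% passed, 19.3% higher and 22.9% lower, and 1 member, PARP1, did not overlap, against 16.6% of all genes. None of the 10 changed 2-fold, against 0.589% of all genes. In the other pairs across the lines, members passed at 9 of 10 for shCEBPB against A2780 (88.9% of all genes), 9 of 10 for shCON against A2780 (91.4%) and 6 of 10 for shCEBPB against OlaR (83.7%), with 4, 1 and 2 members past 2-fold (38.5%, 35.7% and 28.9% of all genes). Counts for OlaR against shCON depended on the libraries, with 6 members passing in libraries 1 to 3 and 5 after the correction for GC content and length. The comparisons of shCEBPB with shCON and of OlaR with A2780 share no library, but the likeness of OlaR and shCON means that they set similar libraries in opposite places. PARP4, PARP9, PARP10 and TNKS passed in opposite directions in these comparisons, while PARP1 was higher and PARP2 and PARP3 were lower in the first-named group of both.

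Spread within groups went with the GC content of the genes. For each library, the slope of its genes' deviations from the group mean on the GC content of their transcripts was taken, in log2 units per 10 percentage points of GC. This slope ran from -0.21 to 0.11 in shCEBPB and was below 0 in libraries 1 to 3 and above 0 in libraries 4 to 8 of both shCEBPB and OlaR. Over the 31 libraries, deviations of PARP10 (transcript GC 66.8%) correlated with the slope at r = 0.960, and those of PARP4 (44.5%), TNKS (43.3%), PARP14 (42.4%) and TNKS2 (41.5%) at -0.938, -0.917, -0.880 and -0.879. PARP9 and PARG had r = -0.686 and -0.673, PARP3 (57.1%) had 0.638, and PARP2 had -0.331. For PARP1 the value over all libraries was -0.243, but the relation had opposite signs in different groups, with r = 0.964 in OlaR and -0.697 in shCEBPB (8 libraries each). These are descriptions over libraries that share their slope between all genes. After the correction for GC content and length, the rise of PARP10 in OlaR was 1.18, the fall of TNKS2 there was -0.16 and the fall of PARP9 in shCEBPB was -0.12, and each still passed. PARP4 and TNKS kept direction and call after it in both comparisons. PARG and TNKS2 in shCEBPB and PARP14 in OlaR changed sign after it. In shCEBPB, PARP1 was high in libraries 1 to 3, whose slopes were below 0, and low in replicates 5 to 8, whose slopes were above 0, while replicate 4 was high in PARP1 with a slope of 0.09.

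**Figure D5:**
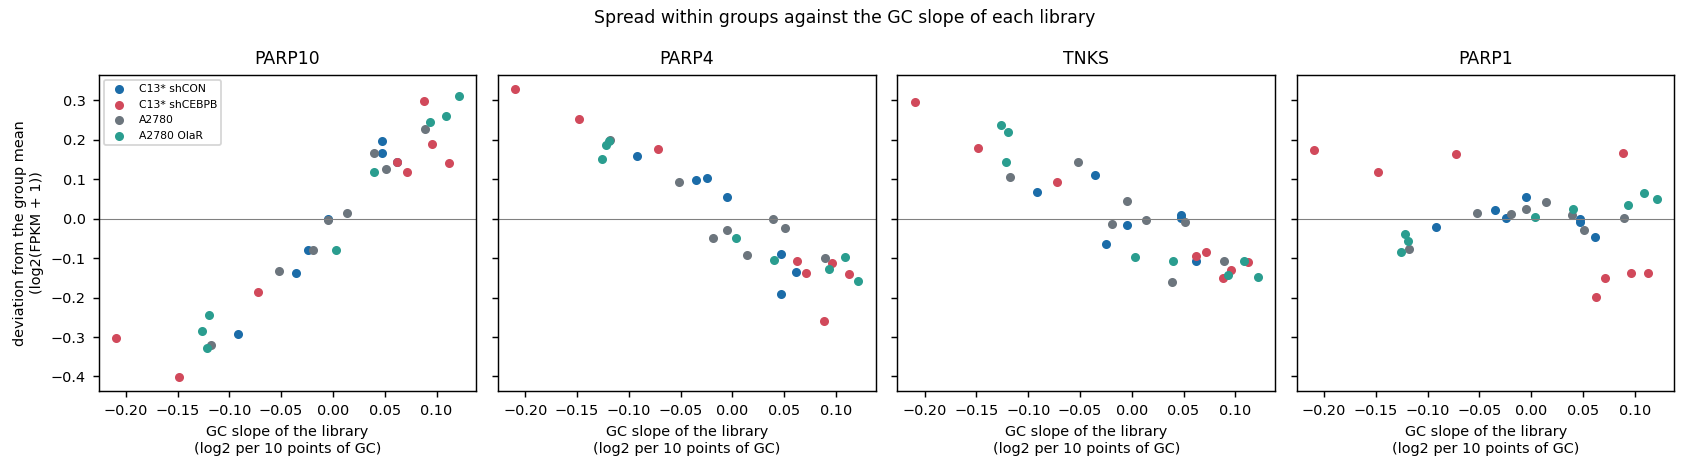
Deviation of PARP10, PARP4, TNKS and PARP1 from their group mean (log2(FPKM + 1)) against the GC slope of each library (log2 per 10 points of GC), 31 libraries coloured by labelled group. PARP10 rises with the slope (r = 0.960), PARP4 and TNKS fall (r = -0.938 and -0.917), and PARP1 rises with it in OlaR (r = 0.964) and falls in shCEBPB (r = -0.697).

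Genes with the most similar pattern to each member were sought among 12967 genes over the 31 libraries. For PARP1 they were NCAPD2 (r = 0.994), MYC (0.991) and TNS3 (0.991), for PARP14 LRBA (0.995), EMB (0.995) and SRP54 (0.994), and for PARP10 KEAP1 (0.994), TMEM134 (0.990) and ALDH4A1 (0.989). The first for the others were ZNF699 for PARP2 (0.976), DHRS2 for PARP3 (0.985), BRD7 for PARP4 (0.977), FAM208A for TNKS (0.980), CLDN12 for TNKS2 (0.916), MOCS2 for PARP9 (0.932) and MLH3 for PARG (0.878). After centring within groups the r of NCAPD2 with PARP1 was 0.757, that of LRBA with PARP14 was 0.880 and that of ZNF699 with PARP2 was 0.629, so part of the likeness was in the group means. Between the members themselves, PARP2 and PARP14 were the most alike over all libraries (r = 0.954) and PARP1 and PARP3 the most opposed (r = -0.910). These values rest largely on 4 group means.

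Around the members, 48 genes in 6 lists were counted: other transferases, ADP-ribose hydrolases, PARP1 partners and readers, tankyrase partners, PARP9 and PARP14 partners, and NAD synthesis. In shCEBPB against shCON, 44 were tested and 36 passed, 10 higher and 26 lower, with a median log2 fold change of -0.29. In OlaR against A2780, 45 were tested and 40 passed, 20 higher and 20 lower, with a median of 0.02. The share of all genes that passed, as given for the members, was 84.7% in C13* (38.9% higher, 45.7% lower) and 89.8% in A2780 (40.1% higher, 49.7% lower).

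Of the partners and readers of PARP1, 7 of 9 tested passed in C13*, 2 higher and 5 lower (median -0.57). HPF1, which turns PARP1 and PARP2 toward serine, fell most, from 28.1 ± 1.20 to 7.15 ± 1.18 FPKM (-1.85, adjusted p = 2.08e-13, limma), and PARPBP rose most (0.36, adjusted p = 2.93e-04, limma). In A2780, 8 of 10 passed, 4 each way (median -0.01). Over all genes 84.7% passed in C13* (38.9% higher, 45.7% lower) and 89.8% in A2780 (40.1% higher, 49.7% lower). XRCC1, the scaffold of single-strand break repair, rose from 9.27 ± 0.968 to 27.7 ± 3.13 FPKM in OlaR (1.48, adjusted p = 6.05e-14, limma), and HPF1 fell from 41.2 ± 3.39 to 24.4 ± 3.03 (-0.74, adjusted p = 5.88e-09, limma). HPF1 was therefore lower in the first-named group of both comparisons, while PARP1 was higher.

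The 5 partners of PARP9 and PARP14 counted here (DTX3L, STAT2, STAT6, IRF1 and IRF9) all passed as lower in shCEBPB, with a median of -0.62. Of all genes, 84.7% passed and 45.7% passed as lower. The call of DTX3L did not hold after the correction for GC content and length, as given above. IRF1 fell most, from 15.1 ± 0.638 to 5.26 ± 0.614 FPKM (-1.37, adjusted p = 1.78e-13, limma), and STAT6, the partner of PARP14, fell by 0.33 (adjusted p = 6.06e-07, limma). In A2780 OlaR, 3 of the 5 were higher, DTX3L was lower and IRF9 did not pass (0.02, adjusted p = 0.806, limma), with a median of 0.21. There 89.8% of all genes passed, 40.1% as higher. IRF1 rose from 2.62 ± 0.230 to 14.4 ± 1.14 (2.09, adjusted p = 2.09e-18, limma).

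The other transferases passed in 5 of 7 tested genes in C13* (1 higher, 4 lower, median -0.19) and in 7 of 7 in A2780 (4 higher, 3 lower, median 0.18). Over all genes the shares were 84.7% in C13* (38.9% higher, 45.7% lower) and 89.8% in A2780 (40.1% higher, 49.7% lower). PARP11 was at a mean of 2.999 in shCON and listed at 0 in every shCEBPB library, and PARP12 was at 8.70 and 9.56 (0.12, adjusted p = 0.0148, limma). In A2780 PARP12 was at 0.00357 and in OlaR at 7.76 (3.12, adjusted p = 5.99e-24, limma), while PARP6 fell from 26.7 to 13.3 (-0.95, adjusted p = 3.54e-15, limma). Of the ADP-ribose hydrolases other than PARG, 6 of 8 passed in C13* (4 higher, 2 lower, median 0.22) and 7 of 8 in A2780 (2 higher, 5 lower, median -0.32). ADPRHL2, which takes ADP-ribose off serine, was lower in shCEBPB (-0.26, adjusted p = 0.0437, limma) and higher in OlaR (0.44, adjusted p = 1.47e-05, limma). ADPRH fell in shCEBPB (-1.66, adjusted p = 9.99e-17, limma) and rose in OlaR (1.41, adjusted p = 8.80e-15, limma), and NUDT5 rose in shCEBPB (1.33, adjusted p = 1.79e-11, limma) and fell in OlaR (-1.61, adjusted p = 7.89e-18, limma).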

How the data were processed

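The members and gene lists were chosen with earlier results of these data known. The values the authors deposited are FPKM, 1 table for 31 libraries. Per the study's methods, TopHat placed reads of 150 bp on hg38, and DEGs came from a count test. The tool and annotation behind the FPKM are not given in the sources used here. Entries with a repeated symbol (4 of 19225) were left out.

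Each comparison used its own 2 groups and limma 3.58.1 in R 4.3.3 (lmFit, eBayes with trend, two-sided) on log2(FPKM + 1), with Benjamini-Hochberg adjustment over the genes with 1 FPKM or more in a number of libraries equal to the size of the smaller group. Genes were called at an adjusted p under 0.05. Single members and ratios had two-sided exact permutation tests (scipy 1.17.1). The count test of the study was not used, since FPKM are not counts. On simulated data for the C13* comparison (12006 genes) the step found 88% of 100 genes changed by 0.5 (log2) and 100% of those changed by 1, with 4.57% of calls false. For A2780 (12458 genes) it found 100% of both, with 7.41% false. The simulation drew noise independently for each gene and changed few genes. In these data most genes were called and deviations were shared between genes, so these rates may not hold for them.

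Named were the 10 members, CEBPB, the markers, for each list the called gene with the largest rise and fall, with DTX3L, HPF1 and ADPRHL2, and the 3 genes most like each member. STAT6, STAT2 and IRF9 were named after their values were seen. A gene of the PARP9 and PARP14 partner list is not reported here and is in no list count. Alternatives were a pseudocount of 0.1, no filter or one at 5, 3 scalings, 1 fit of all groups, replicate blocks, libraries 1 to 3 or 4 to 8, a correction for GC content and length (known for 95.1% of genes), a 2-fold change, an adjusted p under 0.01, and leaving out shCON replicate 1. The correction with the block, and the alternatives for pairs across experiments, were added after seeing the data.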

Additional observations from a re-analysis of the deposited data

How the results depend on the processing

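The direction and call of PARP1 (A2780), PARP10 and PARP14 (both C13*) held under all 15 or 16 alternatives run for each. The numbers of members called stayed within 1.5 times the values reported in both comparisons, except when a 2-fold change was also asked for. With that, 3539 genes, 2 members and 14 genes of the 6 lists passed in C13*, and 4446, 1 and 12 in A2780. In the pairs across the experiments it left 68 genes and 0 members (OlaR against shCON), 4710 and 4 (shCEBPB against A2780), 4469 and 1 (shCON against A2780), and 3459 and 2 (shCEBPB against OlaR). The number of members called between OlaR and shCON was 6 in libraries 1 to 3 and 5 with the GC content and length correction, against 3. The cause was not tested.

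Log2 fold changes that turned were all small. PARG in C13* was 0.0604 with quantile normalization, 0.0928 in libraries 1 to 3, 0.0897 with the GC content and length correction and 0.105 with that correction and the replicate block. TNKS2 in C13* was 0.0349 in libraries 1 to 3, 0.0879 with the correction and 0.0924 with correction and block. PARP14 in A2780 was 0.0145 with the median of ratios, 0.0743 in libraries 1 to 3, 0.0839 with the correction and 0.0839 with correction and block. In libraries 1 to 3 the log2 difference of the ratio of TNKS to TNKS2 in A2780 was -0.0777 and that of PARP9 to PARP14 in C13* was 1.52, against -0.15 and 1.60, and 3 against 3 libraries cannot give an exact p under 0.10. Quantile normalization moved the median of all genes in shCEBPB against A2780 from -0.18 to -0.04.

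Same-numbered libraries did not deviate together (mean r of -0.14 over 7 pairs in C13* and -0.23 over 8 pairs in A2780), so the numbers were not taken as a pairing. Between shCEBPB and OlaR they did so more often, with a mean r of 0.476 over 8 pairs, 7 of them above 0.1 and the lowest at 0.0856, but only 2 of the 8 libraries of each group were most like the one with their own number. With the block 10707 genes and 7 members passed there, against 10018 and 6. With the replicate block 9885 genes and 8 members passed in C13*, and 10960 genes and 9 members in A2780. Without shCON replicate 1, 10065 genes and 8 members passed in C13*.

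FPKM give no read counts, so counting error is unknown. By Dixon's gap test, no library was flagged as far from its group in any of 40 sets of 1 member in 1 group. That test looks at 1 extreme value and cannot flag clusters of libraries, such as the split of PARP1 within shCEBPB given above.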

Other observations

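Genes of NAD synthesis make the substrate of the PARP enzymes. Among the lists counted, theirs had the median log2 fold change largest in size in both comparisons. Its counts of passing genes, higher and lower together, were near the background. In C13* shCEBPB against shCON, 8 of 8 tested genes passed, against 84.7% of all genes. Of these 8, 1 was higher and 7 lower, with a median log2 fold change of -0.80. Over all genes 38.9% passed as higher and 45.7% as lower, with a median of -0.07. QPRT, which starts from quinolinate, rose from 0.346 ± 0.103 to 55.0 ± 8.08 FPKM (5.37, adjusted p = 6.59e-20, limma), and NMNAT2 fell from 4.58 ± 0.380 to 0.0119 ± 0.00609 (-2.46, adjusted p = 1.41e-19, limma). In A2780 OlaR against A2780, 8 of 8 passed, against 89.8% of all genes, with 6 higher, 2 lower and a median of 0.67. There 40.1% of all genes passed as higher and 49.7% as lower, with a median of -0.12. NAPRT, which starts from nicotinic acid, rose from 1.66 ± 0.406 to 87.6 ± 14.0 FPKM (5.06, adjusted p = 1.20e-19, limma), and QPRT fell from 36.2 ± 3.68 to 0.0382 ± 0.0276 (-5.16, adjusted p = 1.31e-24, limma). QPRT was thus near 0 in the libraries labelled shCON and OlaR and high in the other groups.

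Tankyrase partners passed in 5 of 7 genes in C13* (2 higher, 3 lower, median -0.21) and in 6 of 7 in A2780 (1 higher, 5 lower, median -0.32). AXIN2, a target and brake of Wnt signalling, rose from 0.168 ± 0.0399 to 4.47 ± 0.825 FPKM in shCEBPB (2.21, adjusted p = 1.26e-14, limma) and fell from 4.57 ± 0.243 to 0.178 ± 0.0846 in OlaR (-2.24, adjusted p = 7.34e-20, limma). NUMA1 fell in shCEBPB (-0.81, adjusted p = 8.82e-11, limma), and TNKS1BP1 rose in OlaR (0.93, adjusted p = 4.34e-09, limma). The share of all genes that passed was 84.7% in C13* (38.9% higher, 45.7% lower) and 89.8% in A2780 (40.1% higher, 49.7% lower).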
